A study of Mus musculus with 15 samples.

Results

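Hexosamine and nucleotide sugar supply was followed through 9 enzymes, chosen by symbol among the 53380 features of each expression file: Gfpt1, Gnpnat1, Pgm3, Uap1, Ogt, Ugp2, Gmppa, Gmppb and Gmds. All 9 were found once in the files, and all 9 passed the filter on low counts. The cells were T-ALL cells (T cell acute lymphoblastic leukemia of the mouse), grown from tumors of EμSRα-tTA/tet-O-MYC mice on the FVB/N background. In this model the EμSRα promoter drives a tetracycline transactivator that keeps a human MYC transgene on, and doxycycline turns it off. PolyA RNA was sequenced in 3 libraries at each of 5 times, the mock-treated cells with MYC on (0 h) and cells kept in doxycycline, MYC off, for 2, 4, 8 and 24 h. Every group carried both transgenes, and the doxycycline libraries had no MYC-on library of the same age beside them, so that the loss of MYC, the drug itself and time in culture cannot be told apart. Neither the labels nor the methods say whether the 3 libraries of a time came from separate cultures, so the p-values measure the spread between these libraries, which may be technical.

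The hexosamine pathway turns a side stream of glycolytic fructose phosphate into UDP-N-acetylglucosamine (UDP-GlcNAc), the donor from which N-glycans, mucin-type O-glycan branches, proteoglycans and sialic acids are built. Gfpt1 transfers an amino group from glutamine and is the rate-limiting entry enzyme, Gnpnat1 adds the acetyl group, Pgm3 moves the phosphate, and Uap1 couples the sugar to UDP. Ogt, the O-GlcNAc transferase, spends UDP-GlcNAc on nuclear and cytosolic proteins, and Oga removes that mark again. Ugp2 makes UDP-glucose, Gmppb is the catalytic subunit that makes GDP-mannose and Gmppa its regulatory partner, and Gmds takes GDP-mannose on towards GDP-fucose.

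The targeted gene was checked first. The MYC transgene gave 1975 to 2079 CPM (counts scaled to a common library total, with the totals adjusted by the TMM method of edgeR) in the 0 h libraries, 23.4 to 27.1 CPM at 2 h and 2.94 to 3.54 CPM at 24 h, a log2 fold change of -6.35 ± 0.11 (SE) at 2 h (edgeR adjusted p = 9.5e-15). Library totals lay between 25852711 and 27102318 counts. All 12 T lineage markers were measured, and their summed level was 3857 to 3988 TPM (the deposited values per transcript length and library) at 0 h, 3354 to 3481 at 2 h, 4046 to 4323 at 4 h, 5646 to 6233 at 8 h and 8350 to 9336 at 24 h. Among the T lineage markers Ptcra stayed at 1.48 to 3.84 TPM, and mean Cd5 went from 7.10 TPM at 0 h to 135 at 24 h. Of 6 macrophage markers Lyz2 was at 0 counts in every library, and the list summed to 7.26 to 8.18 TPM at 0 h and 17.8 to 29.4 TPM at 24 h. From 0 to 24 h mean Itgam went from 1.35 to 13.8 TPM, Cd68 from 2.08 to 4.40 and Csf1r from 4.38 to 4.04. Adgre1 and Mrc1 stayed at or under 0.118 TPM. Of 6 B cell markers Ms4a1, Cd79b and Pax5 were at 0, and the list's 104.7 to 212 TPM came almost wholly from Ighm (105 to 212 TPM). The fibroblast list stayed at or under 0.283 TPM and the erythroid list at or under 1.12 TPM. The 24 h replicate 3 library stood apart from its group, with chi-square values per degree of freedom of 85.0 and 93.7 against the other 24 h libraries where all other replicate pairs gave 2.94 to 17.9, and with 3.18% of its counts in ribosomal protein genes against 4.99% and 5.29%. Several results are given with and without it, and the others with it only.

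All 9 genes are protein coding in GENCODE M21 on GRCm38. Gfpt1 (chr6:87042846-87092197, plus strand), Gnpnat1 (chr14:45376334-45404913, minus), Pgm3 (chr9:86554377-86571842, minus) and Uap1 (chr1:170141938-170174957, minus) form the UDP-GlcNAc chain. Ogt lies at chrX:101640060-101684351 (plus) and Ugp2 at chr11:21321138-21371201 (minus). Gmppa lies at chr1:75435930-75443179 (plus), Gmppb at chr9:108049242-108052801 (plus) and Gmds at chr13:31819579-32338740 (minus). Whether reads were counted by strand is not stated in the sources used here, which bears on 4 members whose exons share bases with a gene on the opposite strand: Gnpnat1 with Styx (3878 of 4735 exon bases, 81.9%), Pgm3 with Dop1a (1270 of 4487), Gmppb with Rnf123 (937 of 2785) and Ugp2 with Gm12043 (78 of 3069).

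RefSeq promoter windows on GRCm38.p6 were held for 7 of the 9 members, with 9 windows in all because Ogt and Ugp2 have several starts. Gnpnat1 and Gmppb had no entry. MYC with its partner MAX is known to bind the palindrome CACGTG and, less tightly, CACGCG. Within the 250 bases before the start, CACGTG stood in none of the 9 windows, and in 6.02% of all 32851 windows of that length. CACGCG, read on both strands (CGCGTG on the other), stood in 2 of the 9 and in 7.62% of all windows. The 2 were the Gfpt1 window and the first of 2 Ugp2 windows. The second Ugp2 window, chr11:21370630-21370879, held 0 matches to either motif. The 2 windows with a match are shown with the one for Pgm3, the member that fell furthest. They read 5′ to 3′ in the direction of transcription, with the matches in capitals. In Ugp2 a pair of matches on opposite strands overlaps and reads as 1 longer run of capitals, and another match lies nearer the start.
Gfpt1, chr6:87042596-87042845, plus strand: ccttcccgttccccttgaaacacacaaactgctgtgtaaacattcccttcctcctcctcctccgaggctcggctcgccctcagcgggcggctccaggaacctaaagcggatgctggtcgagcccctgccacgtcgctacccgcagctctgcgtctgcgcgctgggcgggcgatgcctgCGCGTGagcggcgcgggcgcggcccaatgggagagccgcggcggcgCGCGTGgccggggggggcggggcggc
Pgm3, chr9:86571843-86572092, minus strand: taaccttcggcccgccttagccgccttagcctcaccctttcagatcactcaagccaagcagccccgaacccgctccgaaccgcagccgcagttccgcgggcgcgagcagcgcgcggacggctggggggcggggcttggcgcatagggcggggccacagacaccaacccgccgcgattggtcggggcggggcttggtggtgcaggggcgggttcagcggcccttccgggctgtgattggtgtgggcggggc
Ugp2, chr11:21371268-21371517, minus strand: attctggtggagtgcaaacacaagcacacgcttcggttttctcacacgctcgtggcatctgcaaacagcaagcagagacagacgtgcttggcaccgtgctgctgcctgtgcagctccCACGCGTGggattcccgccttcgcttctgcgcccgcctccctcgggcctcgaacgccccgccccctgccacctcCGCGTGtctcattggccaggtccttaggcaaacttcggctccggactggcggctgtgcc
The Gfpt1 matches begin 72 and 26 bases before the start, and the Ugp2 matches 133, 131 and 59 bases before it. Guanine and cytosine made up 72.0% of the Gfpt1 window, 71.6% of the Pgm3 window and 64.0% of the first Ugp2 window (73.6% of the second). The first Ogt window had 49.6% and that of Gmppa 50.8%. A match is a run of letters only, and binding was not measured here.

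**Figure D1:**
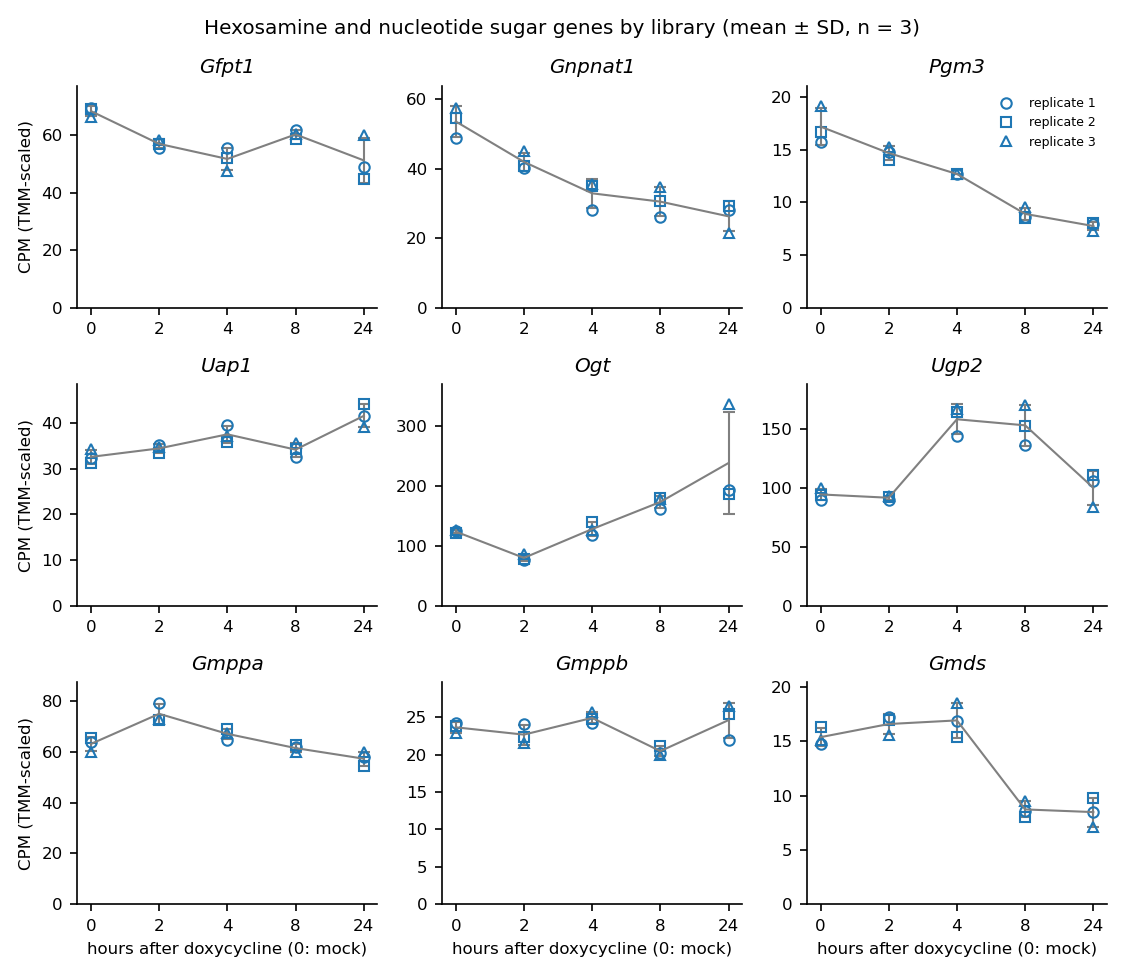
Expression of the 9 genes in every library, with hours in doxycycline on the x axis (categories, not to scale) and TMM-scaled CPM on the y axis, which starts at 0. Symbols are the 3 replicates, and lines with bars are the mean ± SD. Pgm3 and Gnpnat1 lie lower at each later time, Gmds drops between 4 and 8 h, Ugp2 is highest at 4 and 8 h, and the 24 h replicate 3 library stands far above the others for Ogt.

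The middle of the UDP-GlcNAc chain lost transcript after MYC was turned off. Gnpnat1, the acetyltransferase, gave 48.7, 54.7 and 57.3 CPM before doxycycline, 40.1, 40.6 and 45.0 after 2 h, 28.1, 35.1 and 35.4 after 4 h, 26.1, 30.8 and 34.6 after 8 h and 28.1, 29.3 and 21.3 after 24 h. The libraries of 2 h and later lay below all of the 0 h libraries, and those of 4, 8 and 24 h overlapped each other. Gnpnat1 fell by 4 h (log2 fold change -0.70 ± 0.13 SE, edgeR adjusted p = 0.00029). The difference from 0 h was -0.81 ± 0.13 by 8 h (edgeR adjusted p = 5.25e-05). By 24 h it was -1.03 ± 0.13 (edgeR adjusted p = 3.57e-06), when the mean was 49.0% of the 0 h mean. Without 24 h replicate 3 the 24 h difference was -0.90 (edgeR adjusted p = 1.66e-07). The 2 h value of -0.35 ± 0.13 did not pass (edgeR adjusted p = 0.0557), but did without 24 h replicate 3 (adjusted p = 0.00478). Because most of its exon bases are shared with Styx, a pseudophosphatase gene on the plus strand, the Gnpnat1 values are uncertain. Styx fell alongside, with log2 fold changes of -0.36, -0.71, -0.78 and -0.98 at 2, 4, 8 and 24 h (edgeR adjusted p = 0.00859 at 2 h and 1.61e-07 at 24 h). The Gnpnat1 count was 0.546 to 0.671 of the Styx count in all 15 libraries, and without the strand setting reads of the 2 genes cannot be told apart.

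Pgm3, the mutase, fell furthest of the 9 by 24 h. It gave 15.8, 16.7 and 19.1 CPM before doxycycline, 14.8, 14 and 15.3 after 2 h, 12.7 in each library after 4 h, 8.62, 8.52 and 9.55 after 8 h and 7.94, 8.01 and 7.28 after 24 h. No library of one time overlapped those of the time before it. Pgm3 fell by 4 h (log2 fold change -0.44 ± 0.09 SE, edgeR adjusted p = 0.000638) and was at 45.1% of the 0 h mean by 24 h (-1.15 ± 0.09, adjusted p = 1.56e-08). Among neighbouring times only the drop from 4 to 8 h passed the test (-0.51 ± 0.09, edgeR adjusted p = 0.000783). Dop1a, on the other strand over 1270 of its exon bases, gave -0.23, -0.10, -0.05 and 0.77 (log2) at 2, 4, 8 and 24 h. At 2 h Dop1a lay near Pgm3 (-0.23 each), but it did not follow the later fall (edgeR adjusted p = 0.705 at 8 h and 2.38e-05 at 24 h). All Pgm3 calls named here and all Gnpnat1 calls against 0 h held in each of the 23 alternative analyses.

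Gfpt1 and Uap1, the first and last steps, moved less. Gfpt1 gave 69.5, 69.2 and 66.4 CPM before doxycycline, 55.4, 57.0 and 58.5 after 2 h, 55.6, 51.9 and 47.7 after 4 h, 61.6, 58.7 and 60.4 after 8 h and 49.0, 44.8 and 59.9 after 24 h. Every library in doxycycline lay below the 0 h libraries. Gfpt1 fell at 4 h (log2 fold change -0.40 ± 0.09 SE, edgeR adjusted p = 0.00154) and 24 h (-0.42 ± 0.09, adjusted p = 0.000676), to 75.7% and 74.9% of the 0 h mean. At 8 h it stood at -0.18, with a 95% interval of -0.37 to 0.01 (edgeR adjusted p = 0.087). The 24 h call was lost with library totals, with upper-quartile factors and in a fit of only the 2 times, with adjusted p-values up to 0.218. Without 24 h replicate 3, the library with 59.9 CPM, the 24 h value was -0.54 (adjusted p = 2.32e-07), and the 2 h (adjusted p = 0.00123) and 8 h (0.00849) values also passed.

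Uap1, the UDP-GlcNAc pyrophosphorylase, was highest at 24 h. Its CPM was 32.3, 31.1 and 34.3 before doxycycline, 35.1, 33.3 and 34.8 after 2 h, 39.6, 35.8 and 37.1 after 4 h, 32.5, 34.4 and 35.6 after 8 h and 41.6, 44.0 and 39.0 after 24 h. The 24 h libraries lay above all of those at 0, 2 and 8 h, and the 4 h libraries above those at 0 h. The 4 h difference of 0.20 (log2) did not pass (edgeR adjusted p = 0.0247), but did in 3 of 23 alternatives, without 24 h replicate 3 (adjusted p = 0.00765), on library totals and with upper-quartile factors. The log2 fold change at 24 h was 0.35 ± 0.07 (SE, edgeR adjusted p = 0.000357), or 128% of the 0 h mean, and that from 8 to 24 h was 0.28 ± 0.07 (adjusted p = 0.00344). In a fit of only 0 and 24 h the first of these missed the threshold (adjusted p = 0.0156). The rise from 8 to 24 h was lost in 5 of 23 alternatives, 3 of which left out 8 h replicate 1, 8 h replicate 2 or 24 h replicate 2 (highest adjusted p over all alternatives 0.0734).

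Ogt, the enzyme that uses UDP-GlcNAc to modify proteins inside the cell, dipped at 2 h and then climbed. It gave 125, 121 and 126 CPM at 0 h and 76.5, 77.7 and 86.3 at 2 h, so that all 2 h libraries lay far below the 0 h libraries. At 4 h it gave 118, 140 and 127 CPM, at 8 h 161, 181 and 179, and at 24 h 193, 186 and 337. The 4 h libraries overlapped those of 0 h, and the 8 and 24 h libraries lay above them. The 2 h value of -0.63 ± 0.16 (SE) narrowly missed the threshold (edgeR adjusted p = 0.0106) and passed it in 8 of 23 alternatives, which include each of the analyses that left out a 24 h library (adjusted p = 0.00601, 0.0041 and 9.88e-08 without replicate 1, 2 and 3). Ogt rose from 2 to 4 h (0.68 ± 0.16, edgeR adjusted p = 0.00516), a call lost when any 2 h library, 4 h replicate 2 or 4 h replicate 3 was left out (adjusted p up to 0.0322). It was higher than at 0 h by 24 h (0.94 ± 0.16, adjusted p = 0.000102), or 192% of the 0 h mean. The 24 h value depended on replicate 3 for its size, and was 0.61 without that library (edgeR adjusted p = 6.04e-08). The same library held the lowest share of ribosomal protein counts, and the part of this in the Ogt value was not tested. At 8 h Ogt stood at 0.48 ± 0.16 (adjusted p = 0.0176) with all libraries and passed in 6 of 23 alternatives. These were the fits without 24 h replicate 3 (adjusted p = 5.27e-07) or replicate 2 (0.00774), on library totals, with upper-quartile factors, without the low-count filter and of only those times. The steps from 4 to 8 h (0.44, edgeR adjusted p = 0.0684) and from 8 to 24 h (0.46, adjusted p = 0.0271) did not pass. Without 24 h replicate 3 the former passed (adjusted p = 1.05e-05) and the latter was 0.13 (adjusted p = 0.12). The step from 4 to 8 h passed in 3 of 23 alternatives, and that from 8 to 24 h in 4.

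Ugp2, which makes UDP-glucose for glycogen, galactose conversion and glucuronic acid, was raised in a pulse. It gave 89.5, 94.1 and 99.5 CPM at 0 h and 89.3, 92.6 and 92.7 at 2 h, then 144, 164 and 166 at 4 h and 136, 152 and 170 at 8 h. At 24 h it gave 105.9, 110.5 and 83.4 CPM. Replicates 1 and 2 lay above all 0 h libraries and replicate 3 below them. Ugp2 rose between 2 and 4 h (log2 fold change 0.79 ± 0.10 SE, edgeR adjusted p = 2.81e-05), was higher than at 0 h at 4 h (0.74 ± 0.10, adjusted p = 2e-05) and 8 h (0.70 ± 0.10, adjusted p = 2.59e-05), and fell from 8 to 24 h (-0.61 ± 0.10, adjusted p = 0.000175). The 24 h difference from 0 h was 0.08 with a 95% interval of -0.14 to 0.30, and it passed only on unscaled library totals (adjusted p = 0.00276). Without 24 h replicate 3 that difference was 0.20 (edgeR adjusted p = 0.0278), and the fall from 8 to 24 h was -0.50 (adjusted p = 2.09e-05). The calls at 4 and 8 h against 0 h and from 2 to 4 h held in all 23 alternatives, and the fall from 8 to 24 h was lost in the fit of those times alone (adjusted p = 0.0104). Gm12043, a transcript on the other strand that shares 78 bases with Ugp2, moved with it, at log2 fold changes of 0.92 and 1.03 at 4 and 8 h and -0.06 at 24 h (edgeR adjusted p = 0.000178, 3.7e-05 and 0.758). The Ugp2 count was 9.22 to 15.8 times the Gm12043 count.

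Gmds, of the fucose branch, fell late, and the GDP-mannose enzymes moved less. Gmds gave 14.7, 16.3 and 15.1 CPM before doxycycline, 17.3, 16.9 and 15.6 after 2 h and 16.8, 15.4 and 18.6 after 4 h, and then 8.58, 8.07 and 9.51 after 8 h and 8.51, 9.80 and 7.12 after 24 h. The early times overlapped and the late times overlapped, with a gap between 4 and 8 h. Gmds fell from 4 to 8 h (log2 fold change -0.96 ± 0.11 SE, edgeR adjusted p = 2.4e-05) and stayed lower than at 0 h at 8 h (-0.82 ± 0.11, adjusted p = 1.5e-05) and 24 h (-0.86 ± 0.11, adjusted p = 6.32e-06), or 56.7% and 55.1% of the 0 h mean. These calls held in all 23 alternatives, and the 24 h value was -0.75 without 24 h replicate 3.

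Gmppa, the regulatory subunit, gave 63.8, 65.6 and 60.0 CPM at 0 h and 79.4, 72.7 and 72.9 at 2 h without overlap, a rise of 0.25 ± 0.06 (log2, SE) that just passed (edgeR adjusted p = 0.00876). That call was lost in 15 of 23 alternatives, 12 of which left out a library (any 0, 2 or 8 h library, 4 h replicate 2 or 3, or 24 h replicate 1), with adjusted p-values up to 0.0549. From 2 h on its mean went from 75.0 to 67.1, 61.5 and 57.3 CPM, and the 24 h level was lower than that at 2 h (-0.39 ± 0.06, edgeR adjusted p = 6.54e-05). That comparison, which starts from the highest mean, was outside the planned set and was not run under the alternatives. Against 0 h Gmppa stood at -0.14 at 24 h, with a 95% interval of -0.27 to -0.01 (adjusted p = 0.0611), and turned to 0.14 on library totals. Gmppb, the catalytic subunit, kept between 19.9 and 26.5 CPM in all 15 libraries and was the 1 member that did not pass the test over the time course (edgeR adjusted p = 0.0229), though it passed in 3 of 22 alternatives, on library totals, without 24 h replicate 1 and with DESeq2 (lowest adjusted p = 0.00143). Its largest difference from 0 h was -0.21 at 8 h, with a 95% interval of -0.38 to -0.04 (adjusted p = 0.0317), and at 24 h it was 0.06 (-0.11 to 0.22), which passed only on library totals (adjusted p = 0.00203). Rnf123, which covers 937 Gmppb exon bases on the other strand, gave -0.12, -0.39, -0.51 and 0.28 at 2, 4, 8 and 24 h. Its edgeR adjusted p was 0.0119 at 8 h and 0.124 at 24 h. Gm20529, on the same strand over 111 bases and with 11 to 71 counts, gave -1.24 at 8 h (edgeR adjusted p = 0.0106). The part of these genes in the Gmppb values was not tested.

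**Figure D2:**
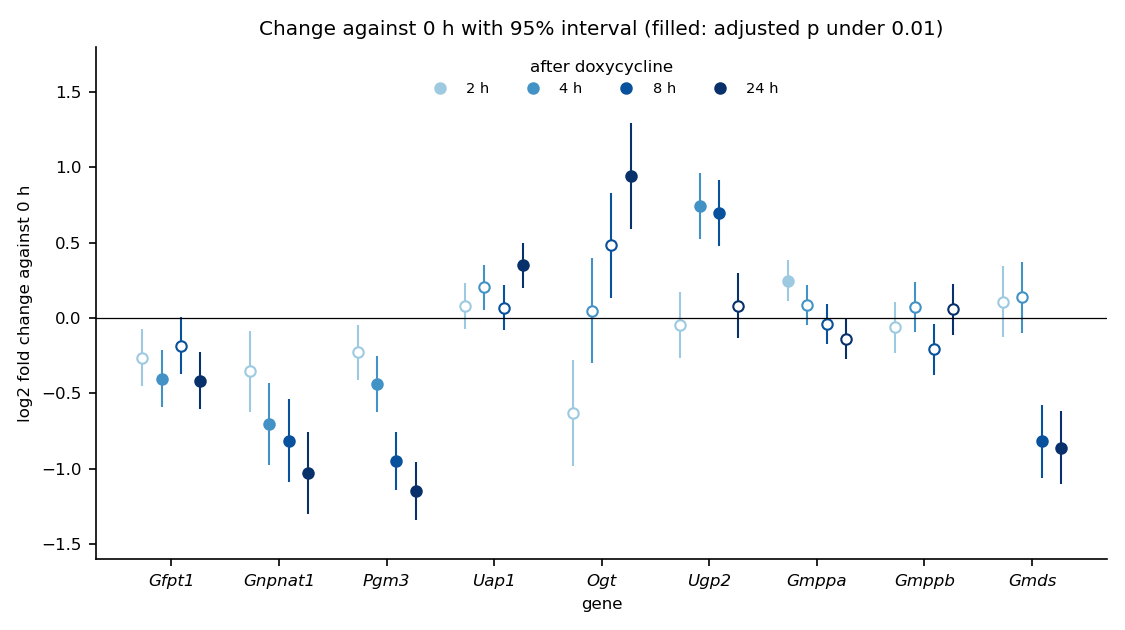
Log2 fold change of the 9 genes against 0 h (y axis) at 2, 4, 8 and 24 h (light to dark), with the 95% interval as a bar; filled points passed an edgeR adjusted p under 0.01. Filled points lie below 0 for Gnpnat1, Pgm3, Gmds and Gfpt1 and above 0 for Gmppa at 2 h, Ugp2 at 4 and 8 h and Uap1 and Ogt at 24 h.

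Counted together, 1 member, Gmppa, was higher at 2 h, where edgeR called 6.60% of all 14485 tested genes higher, and 0 were lower, against 8.59% of all genes. An unadjusted p under 0.05 in edgeR was met by 4 members lower at 2 h, and DESeq2 called 2 of them, Gfpt1 and Ogt. At 4 h 1 member was higher and 3 were lower, beside 18.1% and 19.9% of all genes, and the 8 h counts were also 1 and 3, beside 25.3% and 25.1%. By 24 h 2 were higher and 4 lower, where 30.7% and 28.1% of all genes were. Between neighbouring times, 2 members rose from 2 to 4 h (7.72% of all genes rose and 13.0% fell), and 2 fell from 4 to 8 h (5.73% rose and 6.97% fell). From 8 to 24 h 1 rose and 1 fell, beside 20.8% and 17.3% of all genes. Over the whole time course 8 of 9 passed, as did 74.2% of all genes. With 9 genes, most of these shares lie near those of all genes and are no result about the enzymes as a group. The median log2 fold change of the members at 24 h was -0.14, and that of all tested genes 0.07. Leaving out 24 h replicate 3 raised the members called lower at 2 h to 3, Gfpt1, Gnpnat1 and Ogt, with 1 higher, when 14.8% of all genes were lower and 11.9% higher. Without that library 2 members were higher and 3 lower at 4 h (26.5% and 24.8% of all genes), 2 and 4 at 8 h (31.8% and 29.6%) and 2 and 4 at 24 h (32.0% and 30.7%). In bulk RNA, fewer cells that express a gene and less RNA of it per cell cannot be told apart.

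Levels between genes were compared in the deposited TPM, which take length into account. Genes on the other strand share 81.9% of the Gnpnat1 exon bases, 33.6% of those of Gmppb and 28.3% of those of Pgm3. Without the strand setting the levels of these genes, and their places in the order, are uncertain. At 0 h the order was Ugp2 (80.6 ± 3.66 TPM, SD, n = 3), Gmppa (69.1 ± 3.18), Ogt (40.5 ± 1.30), Gnpnat1 (29.6 ± 2.10), Gmppb (22.3 ± 0.891), Uap1 (21.3 ± 1.2), Gfpt1 (17.8 ± 0.590), Gmds (12.0 ± 0.474) and Pgm3 (10.0 ± 0.961). Only the neighbours Gmppb and Uap1 overlapped in their libraries. Ugp2 held 26.6% of the members' summed TPM at 0 h, and Gmppa 22.8%. By 4 h Ugp2 reached 38.5% ± 1.31 of that sum. At 24 h Ugp2 (99.9 to 114 TPM) lay above Gmppa (71.9 to 91.7 TPM) in all libraries. Ogt gave 73.6, 76.8 and 154 TPM, within the Gmppa range in replicates 1 and 2 and above all Ugp2 libraries in replicate 3. Uap1 (33.1 to 35.8) and Gmppb (25.2 to 35.0) overlapped, and so did Gnpnat1 (16.6 to 19.7) and Gfpt1 (14.1 to 21.9). Gmds (7.80 to 9.29 TPM) and Pgm3 (5.65 to 5.97) remained the lowest, each apart from its neighbours.

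Ratios within a library do not depend on the scaling between libraries. Those with Pgm3 or Gmppb share the uncertainty from exon bases that overlap a gene on the other strand. The pairs were chosen after the values had been seen, and with 3 libraries against 3 an exact two-sided permutation test cannot go below p = 0.1. Uap1 over Pgm3, the last step of the chain over the one before it, was 2.13 ± 0.145 (SD, n = 3, ratio of TPM) before doxycycline. It was 2.63 ± 0.0628 after 2 h, 3.31 ± 0.160 after 4 h, 4.30 ± 0.190 after 8 h and 6.0 ± 0.144 after 24 h. No time overlapped another, and each gave the smallest exact permutation p of 0.1 against 0 h. Ogt over Oga (listed as Mgea5), the writer of O-GlcNAc over its eraser, was 0.417 ± 0.0142 before doxycycline and 0.235 ± 0.0105 after 2 h. It was 0.344 ± 0.0342 after 4 h, 0.593 ± 0.0650 after 8 h and 0.641 ± 0.142 after 24 h, again without overlap with 0 h at any time. Without 24 h replicate 3 the last of these was 0.559. Gmppa over Gmppb was 3.10 ± 0.0792 at 0 h and 3.85 ± 0.0834 at 2 h without overlap, and 2.72 ± 0.302 at 24 h, overlapping 0 h (exact permutation p = 0.3). Gfpt1 over Pgm3 was 1.79 ± 0.216 at 0 h and 3.03 ± 0.189 at 8 h.

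**Figure D3:**
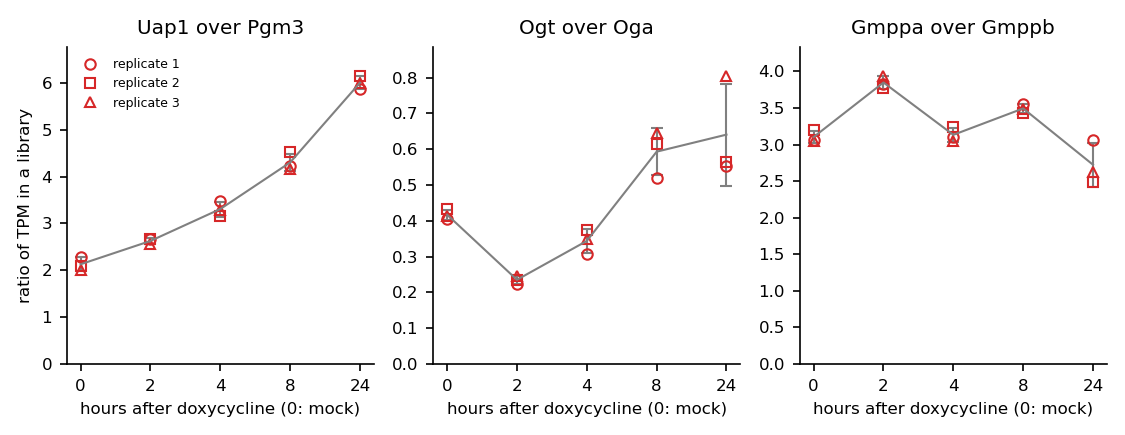
Ratios of TPM within each library (y axis, from 0) by hours in doxycycline (x axis, categories) for Uap1 over Pgm3, Ogt over Oga and Gmppa over Gmppb; symbols are the 3 replicates, lines with bars the mean ± SD. Uap1 over Pgm3 is higher at every later time, from 2.13 to 6.0, and Ogt over Oga falls to 0.235 at 2 h before it passes its 0 h level.

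Around these enzymes, 36 other genes of sugar supply were followed in 4 lists, of which 32 were tested (Gfpt2, Hk3 and Slc35d2 were among those with too few counts). After 2 h, 3 of the 32 were higher and 1 lower. After 4 h these counts were 10 and 5, after 8 h 7 and 8, and after 24 h 6 and 9. Of all genes, 6.60%, 18.1%, 25.3% and 30.7% were called higher at these times, and 8.59%, 19.9%, 25.1% and 28.1% lower. With 6 to 10 tested genes in a list, a count near these shares is no result about the list. The 10 at 4 h rested on single libraries, since leaving out any 0 h library or 4 h replicate 1 gave 6, leaving out 4 h replicate 2 gave 5, and leaving out 4 h replicate 3 gave 3. Without 24 h replicate 3, 8 were higher and 4 lower at 2 h and 11 were higher at 8 h. With library totals in place of TMM, 13 were higher at 24 h.

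The salvage and breakdown list, which recycles amino sugars and removes O-GlcNAc, had 7 tested members, of which edgeR called 0 at 2 h, 5 higher at 4 h (18.1% of all genes), 3 higher at 8 h (25.3%), and 3 higher and 1 lower at 24 h (30.7% and 28.1%). Of the 7, 2 were higher at 2 h at an unadjusted p under 0.05, and DESeq2 also called 0. The median log2 fold change of the list was 0.39 at 4 h, against 0.08 for all tested genes. Nagk, the kinase that salvages N-acetylglucosamine, rose the most, by log2 fold changes of 1.35 ± 0.13 (SE), 1.44 ± 0.13 and 1.39 ± 0.13 at 4, 8 and 24 h (edgeR adjusted p = 1.02e-07 at 24 h). Renbp, an epimerase of N-acetylglucosamine and N-acetylmannosamine, was higher at 4 h (0.39 ± 0.10), 8 h (0.83 ± 0.10, edgeR adjusted p = 2.48e-06) and 24 h (0.60 ± 0.10). Amdhd2, which takes the acetyl group off again, was higher at 4 h (0.47) and 8 h (0.51) but at -0.21 at 24 h, where it did not pass. Gnpda1, which returns glucosamine phosphate to fructose phosphate, was the 1 that fell, by 24 h (-0.60 ± 0.07, edgeR adjusted p = 2.63e-06). Oga was higher at 4 h (0.33 ± 0.08, edgeR adjusted p = 0.00318) and 24 h (0.30 ± 0.08, adjusted p = 0.00388), and stood at -0.02 at 8 h. Its 4 h call was lost in 4 of 23 alternatives, those without 0 h replicate 2 or any 4 h library (edgeR adjusted p up to 0.0228). The 24 h call was lost in 9 of 23, which left out 0 h replicate 2 or 3, 2 h replicate 3, any 4 h library or 8 h replicate 2, dropped the low-count filter or fitted only those times (adjusted p up to 0.0549). The Renbp call at 4 h was lost in 9 of 23, without any 0 h or 8 h library, 2 h replicate 3 or 4 h replicate 2 or 3 (adjusted p up to 0.0551). The Amdhd2 call at 4 h was lost without 4 h replicate 1 or 3 (adjusted p up to 0.0152).

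The hexose phosphate list, which feeds both chains from glycolysis, held 9 tested members, of which 3 were higher and 1 lower at 2 h (6.60% and 8.59% of all genes), 3 lower at 4 h (19.9%), 1 higher and 5 lower at 8 h (25.3% and 25.1%), and 2 higher and 4 lower at 24 h (30.7% and 28.1%). The list had a median log2 fold change of -0.60 at 8 h against 0.09 for all genes. Hk2, an inducible hexokinase, dropped deepest and early (-2.11 ± 0.18 SE at 2 h, -3.82 ± 0.21 at 4 h and -2.76 ± 0.19 at 8 h, edgeR adjusted p = 5.95e-10 at 4 h) and stood at -0.51 ± 0.16 at 24 h (adjusted p = 0.0108). Hk1 was higher at 24 h (0.73 ± 0.09, edgeR adjusted p = 2.93e-06). Pgm1, the phosphoglucomutase that supplies Ugp2 with its substrate, was higher at 2 h (0.51 ± 0.08) and lower at 4, 8 and 24 h (-0.54, -0.91 and -1.04). The phosphomannomutases ahead of Gmppb fell too, Pmm1 at 4, 8 and 24 h (-0.71, -0.79 and -1.09) and Pmm2 at 8 and 24 h (-0.63 and -0.71), while Mpi, the isomerase before them, did not pass against 0 h at any time (-0.28 to 0.07). Gpi1, the glycolytic isomerase that makes the fructose phosphate used by Gfpt1, was higher at 2 h (0.62 ± 0.06, edgeR adjusted p = 2.03e-06) and lower at 8 and 24 h (-0.60 and -0.43).

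Of 10 other makers of nucleotide sugars, edgeR and DESeq2 both called 0 at 2 h, where 4 were higher at an unadjusted p under 0.05. After 4 h 3 were higher and 1 lower (18.1% and 19.9% of all genes), after 8 h 2 of each (25.3% and 25.1%), and after 24 h 2 were lower (28.1%). Tsta3 (Gfus), the step after Gmds on the way to GDP-fucose, fell at 8 h (-0.34 ± 0.07 SE) and 24 h (-0.65 ± 0.07, edgeR adjusted p = 5.21e-07), and the fucose salvage enzymes Fuk and Fpgt did not pass against 0 h at any time. Ugdh, which oxidises UDP-glucose, the Ugp2 product, was higher at 4 h (0.59 ± 0.07, edgeR adjusted p = 4.5e-06), while Uxs1 and Galt did not pass against 0 h at any time. Galk1, the galactose kinase, fell at 4 and 8 h (-0.59 and -1.05), the first lost under upper-quartile factors or when 0 h replicate 2, 0 h replicate 3 or 4 h replicate 2 was left out (adjusted p up to 0.0165). Of 6 tested transporters, edgeR called 0 at 2 h, where 1 was higher and 1 lower at an unadjusted p under 0.05 and DESeq2 called 1 lower. After 4 h 2 were higher and 1 lower (18.1% and 19.9% of all genes), after 8 h 1 of each (25.3% and 25.1%), and after 24 h 1 was higher and 2 lower (30.7% and 28.1%). Slc35c1, the GDP-fucose carrier of the Golgi, fell at 4, 8 and 24 h (-1.06 ± 0.14, -1.32 ± 0.14 and -0.87 ± 0.14 SE, edgeR adjusted p = 7.55e-07 at 8 h). Gmds, Tsta3 and Slc35c1, a grouping chosen after their values were seen, were each lower at 8 and 24 h. Slc35d1 rose at 8 and 24 h (0.83 and 0.55), and Slc35a3, a UDP-GlcNAc carrier, was higher at 4 h (0.33, edgeR adjusted p = 0.00899) and lower at 24 h (-0.41, adjusted p = 0.00124). The first of these was lost in 16 of 23 alternatives, 12 of which left out any 0, 2, 4 or 8 h library (adjusted p up to 0.103), and the second on library totals, with upper-quartile factors and in the fit of only those times (up to 0.151).

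**Figure D4:**
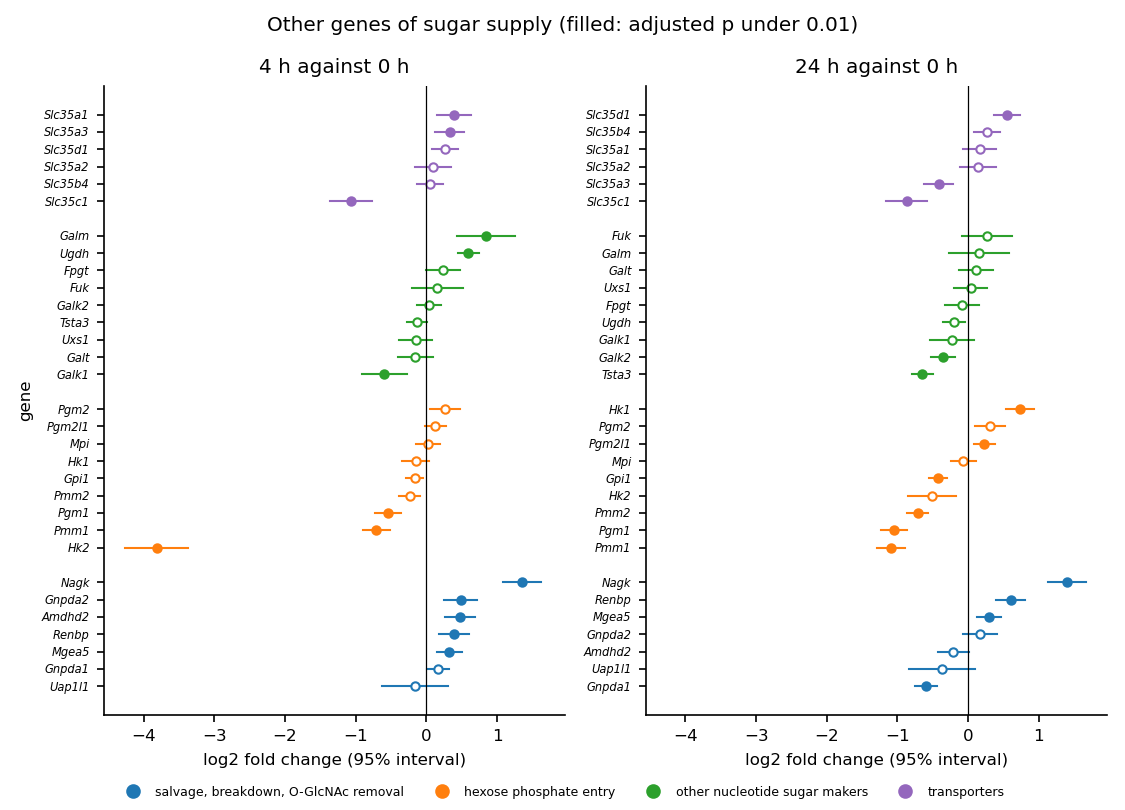
Log2 fold change with 95% interval (x axis) of 31 of the 32 tested genes of sugar supply beside the 9 members (y axis), at 4 h (left) and 24 h (right) against 0 h, coloured by list; filled points passed an edgeR adjusted p under 0.01. Hk2 at -3.82 is the lowest value at 4 h, and Nagk the highest at both times (1.35 and 1.39).

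The genes with time patterns most like those of the members were found by the smallest root mean square difference of the 4 log2 fold changes against 0 h, over 8266 protein-coding genes of at least 10 CPM. Apart from Styx (0.0305) the nearest to Gnpnat1 was Trmt5 (0.0311). Pgm3 was nearest to Cse1l (0.0427) and Timm50 (0.0508), Ugp2 to Fam174a (0.0609) and Eef1akmt2 (0.0848), and Ogt to Nfkbie (0.125) and Thy1 (0.14), 1 of the T lineage markers. Gfpt1 was nearest to Tspan5 (0.0493) and Dnajc6 (0.0519), and Gmds to Wwox (0.134) and Tex2 (0.143). Tfe3 was among the nearest to Uap1 (0.0386). Gmppa was nearest to Klhl2 (0.0271) and Dnajb12 (0.0293), and Gmppb to Arfgap1 (0.0369) and Ppp3cb (0.0384). The order was firm for few of them: Fam174a came first in 22 of 23 alternatives and Wwox in 19, each with a worst rank of 2. Nfkbie came first in 18 but had a worst rank of 32, and Styx came first in 11. Worst ranks were 34 for Tspan5, 55 for Tex2 and 60 for Klhl2. Tfe3 came first in 1 and had a worst rank of 449.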

How the data were processed

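PolyA RNA of 15 libraries was sequenced, 3 per time point. The authors deposited for each library raw read counts per gene, with FPKM and TPM of the same features. Tools listed in the submitters' processing notes were STAR 2.5.4b, cutadapt 1.16 and featureCounts, with mm10 as the build. For the annotation release and the strand setting, the sources used here give nothing. Of 53379 mouse gene IDs, 50604 matched GENCODE M21 (GRCm38) with the version, 2670 without it and 105 not at all. Only the counts entered tests. The deposited TPM served for levels between genes and ratios, and the deposited FPKM for an alternative of those levels.

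Tests were made on the counts by edgeR 4.0.16 (R 4.3.3, filterByExpr, 14485 genes kept, TMM, glmQLFit over 15 libraries with 1 mean per time, no replicate block), at a Benjamini-Hochberg adjusted p under 0.01 over all tested genes. CPM are on TMM-scaled totals. Intervals are 95%. The median library held 26672358 counts. Counting error weighs most on the members with few counts, such as Pgm3 with 218 to 483 per library. Groups follow the labelled hours, and no replicate pair agreed within sampling noise.

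The members and lists, and what to compare, were chosen with earlier results of these data known. All members are named, together with tested genes of the lists, with the largest called changes per list and time preferred, the 2 protein-coding genes nearest to each member in time pattern, and the transgene. Some genes of the lists and of the nearest time patterns are not reported here by name, though the counts include them. Genes overlapping members were added after their values were seen, as were the ratios. Alternatives were other scalings (RLE size factors, library totals, upper-quartile factors), filters (none, or 10 or more counts in all libraries), a fit of only the compared times, a threshold of 0.05, DESeq2 1.42.0, a replicate block and leaving out each library. Promoter windows are from RefSeq (GRCm38.p6), cut to the 250 bases before the start.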

Additional observations from a re-analysis of the deposited data

How the results depend on the processing

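Of the members' log2 fold changes that passed, 474 values under an alternative kept direction and side of the threshold and 30 no longer passed. Of those that had not passed, 932 were unchanged in this sense, 55 came to pass and 21 turned direction. These counts include the main fit read at an adjusted p under 0.05, where no call can be lost. The alternatives counted for single genes leave that setting out. Time course tests are not in these counts. The time course call was lost in 3 of 22 alternatives for Gfpt1 and for Uap1, and in 1 for Gmppa. The 21 values that turned direction belonged to fewer log2 fold changes, since several of these turned under more than 1 alternative. Not all lay near 0 in the main fit, where Gmppa at 24 h was -0.14, with an interval of -0.27 to -0.01. Gmds from 2 to 4 h was -0.0097 with 10 or more counts in all libraries and -0.089 to 0.058 when 1 library was left out, and from 8 to 24 h it was 0.13 on library totals and -0.16 to 0.071 with 1 library left out. Gmppa was 0.071 at 8 h, 0.14 at 24 h and 0.066 from 8 to 24 h on library totals, and 0.12 at 8 h and 0.0016 at 24 h under upper-quartile factors. Ugp2 was 0.0023 at 2 h and 0.014 from 4 to 8 h on library totals, and the latter was 0.012 under upper-quartile factors and -0.14 to 0.026 with 1 library left out. With 1 library left out, Uap1 at 8 h was -0.0055 to 0.10 and Ogt at 4 h -0.059 to 0.065. At an adjusted p under 0.05, which passes more by construction, members lower at 2 h were 2, higher at 4 and 8 h 2 each, lower from 2 to 4 h 1, and 3 higher and 2 lower from 8 to 24 h. With RLE size factors or no low-count filter 0 members were higher and 1 lower at 2 h, and with no filter 2 were higher at 8 h and 1 from 4 to 8 h. With library totals 2, 2 and 4 members were higher at 4, 8 and 24 h and 3 from 8 to 24 h, and with upper-quartile factors 2 each at 4 and 8 h. In a fit of only the times compared, 3 members were lower at 2 h, 2 higher and 5 lower at 8 h, 1 higher at 24 h, 1 lower from 2 to 4 h, 1 higher from 4 to 8 h, and 0 higher and 0 lower from 8 to 24 h. DESeq2 gave 2 lower at 2 h and 2 higher from 8 to 24 h, and the filter of at least 10 counts 2 higher from 8 to 24 h. Of the other list genes, at 2 h 6 were higher and 4 lower at an adjusted p under 0.05, 12 higher and 4 lower in the fit of only those times, and 3 lower with RLE size factors, 2 without a filter or with at least 10 counts and 4 with DESeq2, at 8 h 11, 12 and 13 were higher at an adjusted p under 0.05, on library totals and under upper-quartile factors, and at 24 h 13 with library totals. Over all tested genes, 3532, 4773 and 3257 were called at 2 h, from 2 to 4 h and from 4 to 8 h at an adjusted p under 0.05, and 5226, 4963 and 1933 at 2 h, from 2 to 4 h and from 8 to 24 h with only the times compared. Leaving out 1 library gave 0 to 1 members higher and 0 to 3 lower at 2 h, 1 to 2 higher at 4 h and at 8 h, 1 to 2 higher and 0 to 1 lower from 2 to 4 h, 0 to 2 higher from 4 to 8 h, and 0 to 3 higher and 1 to 2 lower from 8 to 24 h. It gave 2 to 8 other list genes higher and 1 to 4 lower at 2 h, 3 to 11 higher at 4 h and 7 to 11 at 8 h, and over all genes 1422 to 3911 calls at 2 h, 2077 to 5321 from 2 to 4 h and 1111 to 3824 from 4 to 8 h. Where the construction of the alternative does not show it, the cause was not tested. On library totals the median change (log2) over all genes shifted by 0.27 at 24 h, 0.11 at 8 h and 0.17 from 8 to 24 h, and under upper-quartile factors by 0.10, 0.16 and 0.14 at 4, 8 and 24 h; of the genes called at 24 h, 52.2% were higher with TMM and 69.0% with library totals.

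Same-numbered libraries did not deviate together (correlation of deviations from the group means -0.31 to 0.21 over 30 pairs, median 0.025, 3 over 0.1), so the numbers were not taken to pair samples. With the replicate block, 0 members were higher and 1 lower at 2 h and 2 other list genes were lower at 2 h, and no other count of members or list genes moved by more than 1.5 times.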
